A study of Mus musculus with 28 samples.

Results

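The transcriptional response of male mouse liver to TCPOBOP was compared between 2 and 8 weeks of exposure under the low corn oil regimen, gene by gene. TCPOBOP is a synthetic activator of CAR, the constitutive androstane receptor that Nr1i3 encodes. A response is the log2 ratio of the TCPOBOP level to the vehicle level, each in FPKM (fragments per kilobase, scaled to the library size) plus 0.1, and the measure described is the 8-week response minus the 2-week response. The 11030 genes of at least 1 FPKM in any of the 4 groups were taken from the 24197 genes of the table. Just inside that limit lay Mir8116, Dock10 and Mir7054, with highest levels of 1.00049, 1.00051 and 1.00238 FPKM, and just outside lay Cnrip1, Fam60a and Sh3bp1, at 0.999, 0.999 and 0.998 FPKM.

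All animals of these 4 groups were outbred CD-1 males, and the RNA was polyadenylated RNA of liver nuclei. The 2-week groups were 4 mice given a single dose of 3 mg/kg TCPOBOP and 3 mice given vehicle, all 9 to 10 weeks old. The 8-week groups were 4 mice given 3 mg/kg followed by repeat doses of 1.5 mg/kg, 15 to 16 weeks old, and 4 vehicle mice dosed for 4 to 8 weeks, of which 2 were 15 to 16 and 2 were 11 to 12 weeks old. The vehicle of all 4 groups was corn oil with 10% DMSO at 4 µl per g body weight. The labels name no transgene or deletion. The 2-week and 8-week libraries carry different set codes, so duration, age and library set cannot be told apart for a level. Each response was formed within its own set. Even so, duration, age and single or repeat dosing cannot be told apart for the difference of responses. At 8 weeks, moreover, 2 of the 4 vehicle mice were younger than the TCPOBOP mice. The 2 responses share no library.

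CAR is a nuclear receptor of hepatocytes that is held in the cytoplasm until an agonist or stress signal releases it to the nucleus, where it pairs with the retinoid X receptor on regulatory DNA. Its classical targets are the enzymes and conjugating proteins that clear drugs and steroids, and in rodents its agonists also enlarge the liver and promote tumours. TCPOBOP is eliminated slowly in mice, so a dose acts for a long time.

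Each level is the authors' single value for a group, with no value per mouse and no standard error, and the depth is unknown. A gene is said to have risen or fallen only where the authors' adjusted p was under 0.05 and the deposited change at least 2-fold. The responses of a gene are said to have differed only where an approximate test of the difference passed an adjusted p of 0.05. That test compared the deposited log2 fold changes and took their standard errors from the deposited p-values. So 6593 genes whose adjusted p was 1 at either time could not be tested, and 4437 could. An approximate SE or adjusted p beside a difference belongs to the deposited difference, which can be larger than the printed FPKM + 0.1 one in low genes. With the FPKM + 0.1 difference over the same standard error, 8 genes passed upward and 13 downward. The 15 hepatocyte identity markers summed to 24639 and 20143 FPKM in vehicle and TCPOBOP mice at 2 weeks, and to 10098 and 15627 FPKM at 8 weeks. The summed Kupffer cell and macrophage markers ranged from 174.7 to 315.5 FPKM, endothelial markers from 185.3 to 267.4 FPKM, stellate cell and matrix markers from 146.8 to 200.9 FPKM, lymphocyte and neutrophil markers from 56.1 to 133.1 FPKM, and cholangiocyte markers from 20.5 to 36.9 FPKM over the 4 groups. No marker of these lists was listed at 0 in every group. In bulk RNA, fewer cells of a type and less RNA per cell cannot be told apart.

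Most responses had a similar size at both times. The difference had a median of 0.02 log2, an interquartile range of -0.18 to 0.22, and a magnitude under 0.5 in 86.0% of the genes. It was positive in 52.8% of them, the share beside which the counts of signs in gene lists below are to be read. Of the 11030 genes, 255 rose (2.31%) and 129 fell (1.17%) at 2 weeks, and 342 rose (3.1%) and 222 fell (2.01%) at 8 weeks. Responses called at 2 weeks mostly kept their sign. Of the rises 242 of 255 (94.9%) had a positive response at 8 weeks, as did 59.1% of all genes. Of the falls 117 of 129 (90.7%) had a negative response at 8 weeks, the less common sign over all genes. A difference of at least 1 log2, which is 2-fold, was found upward in 194 genes (1.76%) and downward in 170 genes (1.54%), counts that rest on no test. Of these 364 genes 105 had names that begin with Mir or Snor, mostly small RNAs, while such names made up only 402 of the 11030 genes. Without them 143 differences were upward and 116 downward. By the approximate test the responses differed upward in 14 of the 4437 testable genes (0.316%) and downward in 17 (0.383%), with 328 genes at an unadjusted p under 0.05.

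By calls at the 2 times, 180 genes rose at both (kept up) and 71 fell at both (kept down). A further 160 rose and 150 fell at 8 weeks alone (gained), and 74 rose and 56 fell at 2 weeks alone (lost). Only 3 genes, Dmbt1, H2-Ea-ps and Rian, moved in opposite directions. A call at 1 time alone does not show a difference: 53 of the 160 gained rises and 40 of the 150 gained falls differed by at least 1 log2, and 7 of each passed the test. Of the gained rises 29, and of the gained falls 36, had an adjusted p under 0.05 at 2 weeks already in the authors' deposited table, with a change under 2-fold. Of the lost rises 26 of 74 differed by at least 1 log2 and 4 passed, and of the lost falls 18 of 56 and 1. The median response of gained rises was 0.68 at 2 weeks and 1.29 at 8 weeks, and that of lost rises was 1.27 and 0.74, so the typical gained or lost gene moved the same way at both times.

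**Figure D1:**
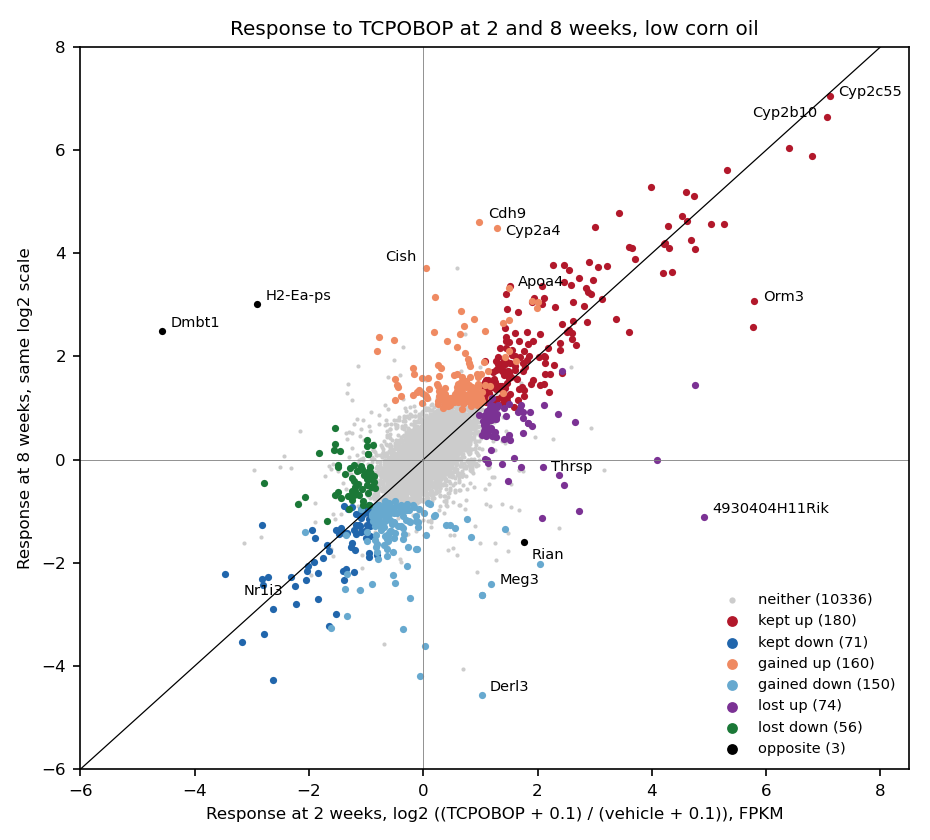
Each point is 1 of the 11030 genes, with its response at 2 weeks on the x axis and at 8 weeks on the y axis, both as log2 ratios of FPKM + 0.1; colours give the class of the calls and the line marks equal responses. Kept genes such as Cyp2c55 and Cyp2b10 lie near the line, Derl3, Cish and Cdh9 lie far from it, and the 3 opposite genes sit in the upper left and lower right quadrants.

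Responses that share no library with either time were set beside these classes as a description. They are that of 3 males given TCPOBOP for 8 weeks under the high corn oil regimen against 3 vehicle males, all 15 to 16 weeks old, and that of 4 females given a single 3 mg/kg dose 2 weeks earlier under the low corn oil regimen against 3 vehicle females, all 9 to 10 weeks old. High corn oil mice received 20 µl per g body weight of corn oil with 2% DMSO, with 3 mg/kg TCPOBOP first and 1 mg/kg weekly thereafter. Dose schedule, oil volume and DMSO share (10% under low corn oil) therefore all differ between the regimens. In males of the high corn oil regimen after 8 weeks, 4.04% of the same genes rose and 1.9% fell, and in females after 2 weeks of low corn oil 3.19% rose and 2.18% fell. Of the kept rises 156 of 180 rose under high corn oil, and of the kept falls 48 of 71 fell. Gained rises were called there in 78 of 160 genes, gained falls in 50 of 150, lost rises in 20 of 74, and lost falls in 8 of 56. In females the counts were 146 of 180 and 54 of 71 for kept genes, 56 of 160 and 43 of 150 for gained genes, and 31 of 74 and 16 of 56 for lost genes. The 446 genes chosen by their rise under high corn oil had a median response of 0.90 at 2 weeks and 1.14 at 8 weeks of low corn oil, and the 352 chosen by their rise in females had 1.11 and 1.23.

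**Figure D2:**
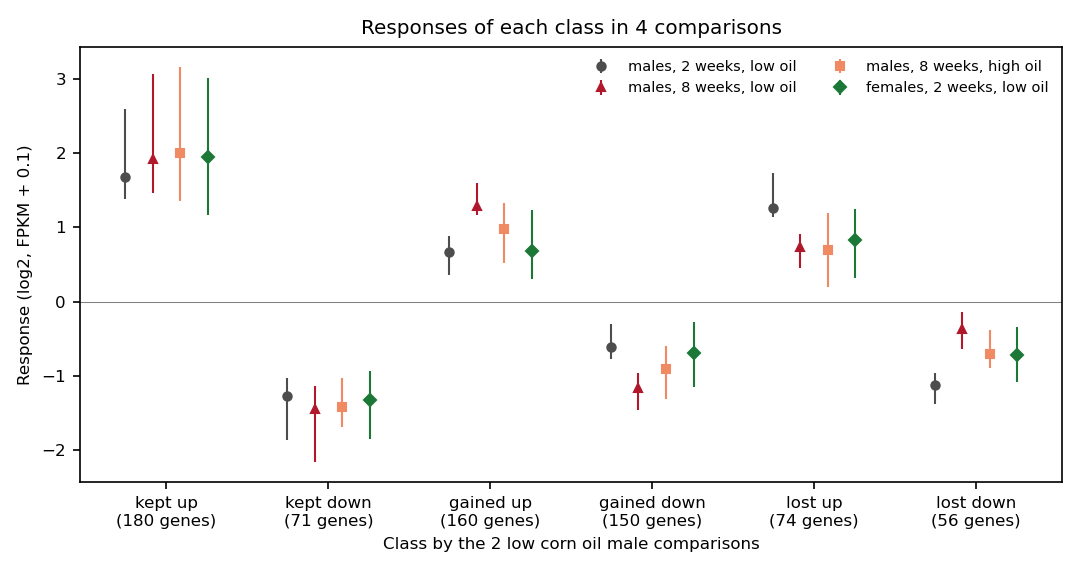
Points are median responses (log2, FPKM + 0.1) of the genes of each class and bars span their quartiles, in the 2 comparisons that define the classes and in 2 others. Gained rises had a median of 0.98 under high corn oil and 0.68 in 2-week females, and lost rises had 0.69 and 0.83.

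Strong CAR targets had large rises at both times. Cyp2b10, the prototypical CAR target, was at 2.41 and 335.5 FPKM in vehicle and TCPOBOP mice at 2 weeks, and at 2.29 and 238.1 FPKM at 8 weeks. Cyp2c55, a steroid and arachidonate hydroxylase, went from 0.696 to 110.5 FPKM at 2 weeks and from 0.520 to 81.7 FPKM at 8 weeks. Their responses of 7.06 and 7.12 at 2 weeks stood beside 6.64 and 7.04 at 8 weeks, and neither difference passed (adjusted p = 1.00 for both). Gstm3, a glutathione transferase, had responses of 4.61 and 4.63. Pnliprp1, a pancreatic lipase relative, had 6.41 and 6.05, and Cyp2b13, a female-biased enzyme that shares sequence with Cyp2b10, had 6.81 and 5.89. Meig1, a meiosis-associated gene, stood at 0.0559 and 3.65 FPKM at 2 weeks, and at 8 weeks it was listed at 0 in vehicle and at 3.54 FPKM in TCPOBOP mice. Gadd45b, a stress-induced growth regulator, kept its response at 4.23 and 4.20, and Ccnd1, which encodes cyclin D1, rose both times with responses of 1.76 and 1.24.

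Among 25 CAR-responsive phase I enzymes 19 rose and 1 fell at 2 weeks, and 20 rose and none fell at 8 weeks, with a median difference of 0.48 against 0.02 over all genes. None of the 23 that could be tested passed. The largest differences among the called members were those of Cyp2a4 and Alas1, at 3.19 and 1.83, followed by Cyp2c54 and Cyp2c37, drug-metabolising enzymes of the Cyp2c cluster. Cyp2c54 was at 34.3 and 371 FPKM in vehicle and TCPOBOP mice at 2 weeks, and at 7.99 and 223.7 FPKM at 8 weeks, a difference of 1.36 that did not pass (adjusted p = 0.0662). Both its levels were lower at 8 weeks, the vehicle level the more so. Cyp2c37 had responses of 3.98 and 5.29. Cyp2c39 fell at 2 weeks with a response of -1.15 and was not called at 8 weeks, at -0.23. Of 27 conjugation enzymes 13 rose at 2 weeks and 17 at 8 weeks, with 1 fall at 8 weeks, Gstp1, and a median difference of 0.31. Gstt3, another glutathione transferase, rose both times but with a lower response at 8 weeks, 3.59 and then 2.48 (adjusted p = 0.201). Members of these families share sequence, so reads may be split among them.

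Kept falls included the gene of the receptor itself. Nr1i3 was at 146.7 and 31.0 FPKM in vehicle and TCPOBOP mice at 2 weeks, and at 170.8 and 31.0 FPKM at 8 weeks. Csad, an enzyme of taurine synthesis, fell from 71.9 to 10.8 FPKM and from 66.5 to 13.6 FPKM. AW549542, an uncharacterised transcript, fell with responses of -3.17 and -3.54. Obp2a, an odorant-binding protein gene, had responses of -2.62 and -4.28, and Fgf21, a fasting hormone, had -2.82 and -1.26, and neither difference passed (adjusted p = 0.70 and 0.20).

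A kept response could still change in size. In 15 of the 180 kept rises the 8-week response was larger by at least 1 log2, and in 3 it was smaller by as much. Among the 71 kept falls these counts were 4 and 2. Apoa4, an apolipoprotein of lipid export that is produced by fatty liver, was at 53.7 and 153.4 FPKM at 2 weeks and at 30.1 and 310.0 FPKM at 8 weeks. Its response differed by 1.85 (approximate SE 0.46, adjusted p = 0.0159), with the vehicle level lower and the TCPOBOP level higher at 8 weeks. Efcab3, an EF-hand protein gene, had responses of 2.27 and 3.78 and passed on the deposited difference of 2.63 (adjusted p = 0.0159). Its vehicle levels were only 0.241 and 0.0524 FPKM, and its difference was 0.47 with a pseudocount of 1 FPKM. Ackr3, a scavenging chemokine receptor, had 1.45 and 3.22 and did not pass (adjusted p = 0.0896). In the other direction, S100a8 and Orm3 rose both times with smaller responses at 8 weeks. S100a8, a neutrophil and acute inflammation gene, was at 0.236 and 18.3 FPKM at 2 weeks and at 0.976 and 6.32 FPKM at 8 weeks, a difference of -3.20 (approximate SE 0.87, adjusted p = 0.00786). Orm3, an orosomucoid of the acute phase, was at 0.559 and 36.5 FPKM and then at 4.77 and 40.8 FPKM, so its TCPOBOP levels were close and its vehicle level was higher at 8 weeks (difference -2.72, adjusted p = 0.00188). Of 23 acute phase proteins, Orm3 among them, 6 rose and 1 fell at 2 weeks, and 8 rose and 1 fell at 8 weeks. In 15 the difference was positive, beside 52.8% of all genes. Lcn2, an iron-sequestering lipocalin, had responses of 2.59 and 3.39. Of the 17 that could be tested Orm3 was the one that passed. Beside S100a8, other neutrophil and lymphocyte markers were not called. S100a9 was at 0.86 and -0.21 and Cd3e at 0.36 and -0.81. These were the low end of the list: of its 12 differences 7 were positive and 5 negative, with a median of 0.16. The part of cell makeup in these values was not tested.

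Notum, a secreted enzyme that inactivates Wnt proteins and is expressed by pericentral hepatocytes, fell at both times and more at 8 weeks. It went from 14.2 to 4.86 FPKM at 2 weeks and from 20.0 to 2.41 FPKM at 8 weeks, a difference of -1.47 (approximate SE 0.36, adjusted p = 0.00569). Other pericentral genes had more calls at 8 weeks without a difference that passed. Of 16 measured, 4 fell and 1 rose at 2 weeks, and 8 fell and 1 rose at 8 weeks. Their differences were positive in 7 and negative in 9, with a median of -0.06. Oat, Slc1a2, Glul, Tbx3 and Lhpp, given next, had negative ones and do not stand for the list. Oat, ornithine aminotransferase, had responses of -1.84 and -2.71, Slc1a2, a glutamate transporter, -2.22 and -2.81 (an order that reversed with a pseudocount of 1 FPKM), and Glul, glutamine synthetase, -0.61 and -1.06. Tbx3, a transcription factor of that zone, had -0.61 and -1.45, and Lhpp, a histidine phosphatase, -0.53 and -1.80. The Wnt feedback genes Axin2 and Rnf43 fell by similar amounts, at -1.04 and -1.03 and at -1.04 and -1.02. The gene that rose was Cyp1a2, a CAR target.

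The 8 largest differences among the gained rises were those of Cish, Cdh9, Cyp2a4, Mir7678, Sult2a1, Slpi, H2-Q2 and Osbpl3, of which Cyp2a4 and Sult2a1 are female-biased. Female-biased liver genes are those that the female pattern of growth hormone release keeps higher in females. Of 30 listed, 16 reached 1 FPKM. Of these 8 rose at both times and 4 at 8 weeks alone, none fell, and the median difference was 0.44. None of the 12 that could be tested passed. Among the 16, Sult2a1 and Sult1e1 reached 1 FPKM only in 8-week TCPOBOP mice. For such genes a rise and a positive difference are in part built in by that limit, so the counts are a description only. Cyp2a4, a steroid hydroxylase, was at 0.814 and 2.13 FPKM at 2 weeks and at 0.374 and 10.5 FPKM at 8 weeks, with responses of 1.29 and 4.48. Sult2a1, a bile acid and steroid sulfotransferase, was at 0.119 and 0.152 FPKM and then at 0.0713 and 1.42 FPKM. Vldlr, a lipoprotein receptor, was at 2.40 and 2.14 FPKM and then at 0.589 and 2.08 FPKM, so its TCPOBOP levels were close to each other. Cyp2a4 did not pass the test (adjusted p = 0.157), and Sult2a1 and Vldlr could not be tested. Under high corn oil at 8 weeks all 3 rose, with responses of 3.94, 3.03 and 1.36. Cyp2a4 and Cyp2a5 are near-identical copies, and their reads may be split.

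Male-biased genes had more falls among the calls at 8 weeks. Of 24 measured, 2 fell and 1 rose at 2 weeks, and 8 fell and none rose at 8 weeks, with a median difference of -0.37. Cyp7b1, an oxysterol hydroxylase, was at 58.6 and 53.6 FPKM at 2 weeks and at 40.5 and 12.0 FPKM at 8 weeks. Hsd3b5, a steroid dehydrogenase, had responses of -0.49 and -1.43, Selenbp2, a selenium-binding protein, -0.63 and -1.54, and Elovl3, a fatty acid elongase, -0.74 and -1.20. Moxd1, a monooxygenase-like gene, rose at 2 weeks from 0.0064 to 2.79 FPKM and was not called at 8 weeks, at 0.737 and 2.17 FPKM. None of the 14 testable male-biased genes passed the test of the difference. Under high corn oil 4 of the 24 fell and 3 rose.

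Major urinary proteins, carriers of pheromones that male liver secretes, overlapped with that list. Of 15 measured, 3 rose and none fell at 2 weeks, and 3 fell and none rose at 8 weeks. Of the 15 differences 12 were negative, while 52.8% of all genes had a positive one. In the high corn oil mice at 8 weeks 2 rose and none fell, with a median response of 0.53 against -0.30 under low corn oil. Mup2 was at 3.04 and 16.3 FPKM at 2 weeks and at 2.83 and 2.28 FPKM at 8 weeks, a difference of -2.68 (approximate SE 0.69, adjusted p = 0.0159). Mup7 was at 285.5 and 509.0 FPKM and then at 171.0 and 60.4 FPKM (difference -2.33, adjusted p = 0.0786). The Mup genes are near-identical copies, so the assignment of reads to a single member is uncertain.

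Cish, a feedback inhibitor of cytokine and growth hormone signalling, had the largest positive difference among the gained rises. It was at 8.57 and 8.90 FPKM at 2 weeks and at 1.07 and 15.3 FPKM at 8 weeks. It rose at 8 weeks and had a response of 0.05 with no call at 2 weeks, and the difference of 3.67 could not be tested. Under high corn oil its levels were 32.3 and 23.5 FPKM, with no call. Socs2, another feedback gene of the same pathway, had responses of -0.12 and 0.28. Bcl6, a repressor that keeps female-biased genes low in male liver, fell at both times, from 14.4 to 5.43 FPKM and from 21.6 to 4.24 FPKM.

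Cdh9, a classical cadherin, was at 0.0207 and 0.138 FPKM at 2 weeks, and at 8 weeks it was listed at 0 in vehicle and at 2.32 FPKM in TCPOBOP mice. Its difference was 3.62 but depends on the pseudocount, and was 1.58 with 1 FPKM. The test passed (adjusted p = 6.44e-05) on the deposited difference of 7.64 (approximate SE 1.405). Under high corn oil it was at 0.0106 and 3.90 FPKM, and in 2-week females its response was 0.64. Cyp39a1, an oxysterol hydroxylase of bile acid synthesis, was at 0.674 and 0.926 FPKM at 2 weeks and at 0.173 and 1.24 FPKM at 8 weeks (difference 1.89, adjusted p = 0.0159, 0.73 with a pseudocount of 1 FPKM). Osbpl3, an oxysterol-binding protein relative, was at 0.577 and 0.671 FPKM and then at 0.437 and 2.90 FPKM. Alas1, the first and limiting enzyme of haem synthesis, was at 25.4 and 47.1 FPKM and then at 11.1 and 73.5 FPKM, with responses of 0.89 and 2.72 (adjusted p = 0.156), and under high corn oil it was at 91.6 and 106.7 FPKM. Slc16a7, a monocarboxylate transporter, rose only at 8 weeks by the calls and passed the test (1.34, adjusted p = 0.0185), as did Tbc1d5, a regulator of endosomal trafficking (1.65, adjusted p = 0.0159). Tbc1d5 had a response of -1.33 under high corn oil.

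Slpi, a secreted inhibitor of leukocyte proteases, was at 4.13 and 2.30 FPKM at 2 weeks and at 0.688 and 3.31 FPKM at 8 weeks. Its responses were -0.82 and 2.11, and the difference of 2.93 passed (adjusted p = 0.00188). Mir7678 passed too (3.15, adjusted p = 0.0161), but it overlaps Slpi in the RefSeq annotation, so it is no separate observation. Serpina7, thyroxine-binding globulin, was at 6.60 and 2.72 FPKM and then at 1.38 and 3.18 FPKM, with no call at either time and a difference of 2.39 that passed (adjusted p = 0.0382).

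Genes of the major histocompatibility complex, which present antigens to T cells, stood on both sides. H2-Ea-ps was at 7.60 and 0.926 FPKM at 2 weeks and at 1.39 and 11.9 FPKM at 8 weeks, so it fell at 2 weeks and rose at 8 weeks (difference 5.92, adjusted p = 7.46e-06). H2-DMb1 was at 1.01 and 0.693 FPKM and then at 0.686 and 2.21 FPKM (difference 2.05, adjusted p = 0.0196). H2-Bl was at 0.625 and 3.91 FPKM and then at 2.37 and 1.65 FPKM (difference -2.96, adjusted p = 0.00109), and H2-T23 was at 10.8 and 44.6 FPKM and then at 12.5 and 2.99 FPKM (difference -4.07, adjusted p = 0.0572). CD-1 mice are outbred and these genes are polymorphic and share sequence, so values of a single H2 gene are uncertain. Over 23 interferon and antigen presentation genes 8 rose at 2 weeks and 6 at 8 weeks, none fell, and the median difference was 0.09. The interferon-induced genes Usp18, Ifit1 and Rsad2 rose at both times.

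Markers of stellate cells and matrix had 1 rise of 16 at 2 weeks, Col1a1, and 5 at 8 weeks, with none lower. The 5 were the collagens Col1a1, Col1a2 and Col3a1 with Vim and Tagln, which mark activated mesenchymal cells. Col3a1 was at 4.09 and 8.01 FPKM at 2 weeks and at 4.41 and 11.8 FPKM at 8 weeks, with responses of 0.95 and 1.41. No difference of the list passed in 7 testable genes. Of the 16 differences 10 were positive and 6 negative, with a median of 0.14. The median response of the list was 0.23 at 2 weeks and 0.19 at 8 weeks. Col1a2 and Col3a1 had an adjusted p under 0.05 at 2 weeks in the authors' deposited table, with folds under 2. Kupffer cell and macrophage markers had 2 rises of 15 at each time and a median difference of -0.12.

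Of 26 genes of lipid uptake and droplets 6 rose and 1 fell at each time, 5 of the rises at both times, with a median difference of 0.06. Lpl, lipoprotein lipase, was at 5.66 and 15.6 FPKM at 2 weeks and at 1.86 and 10.1 FPKM at 8 weeks. Cd36, a fatty acid transporter, had responses of 1.35 and 2.16, Pparg, a regulator of fat storage, 1.31 and 1.99, and Cidec, a droplet protein, 2.05 and 2.43. G0s2, an inhibitor of triglyceride breakdown, fell at 8 weeks with a response of -1.66 after -0.68 at 2 weeks (adjusted p = 0.107 for the difference). Cholesterol synthesis, with 23 genes, had no call at either time, and fatty acid and triglyceride synthesis had 1 rise of 22 at each time, Thrsp at 2 weeks and the desaturase Fads1 at 8 weeks.

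The 8 largest differences among the gained falls were those of Derl3, G530011O06Rik, H2-T23, Mir1906-1, Mir1906-2, C730036E19Rik, Meg3 and Capn8. Derl3, which helps to retrieve misfolded proteins from the endoplasmic reticulum, was at 0.687 and 1.50 FPKM at 2 weeks and at 18.2 and 0.670 FPKM at 8 weeks. It fell at 8 weeks, and the difference of -5.60 (approximate SE 1.02) passed (adjusted p = 1.00e-05), with the vehicle level as the value that stood apart. Under high corn oil it was at 6.47 and 0.989 FPKM. Creld2, an endoplasmic reticulum stress protein, was at 14.2 and 24.0 FPKM and then at 27.3 and 12.3 FPKM (difference -1.90, approximate SE 0.50, adjusted p = 0.0161). Syvn1, a ubiquitin ligase of the same degradation pathway, fell at 8 weeks from 55.3 to 18.9 FPKM after 21.5 and 16.9 FPKM at 2 weeks (difference -1.20, adjusted p = 0.167). The chaperones Hspa5 and Hsp90b1 were not called, with responses of 0.43 and -0.26 and of 0.23 and -0.40. Serpinh1, a collagen chaperone, had no 2-fold change but passed (difference -1.52, adjusted p = 0.00234). Of 18 genes of endoplasmic reticulum stress and chaperones 2 rose at each time and 1, Creld2, fell at 8 weeks. Of the 18 differences 12 were negative, while 52.8% of all genes had a positive one.

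The promoters of Derl3, Creld2 and Syvn1 are shown because each holds the endoplasmic reticulum stress response element, in which the letters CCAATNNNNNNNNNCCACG bind factors of the unfolded protein response. Each run is the 250 bases before the gene's start on its own strand in RefSeq (GRCm38.p6, whereas the authors' files used mm9), at chr10:75893148-75893397, chr15:88819396-88819645 and chr19:6046326-6046575, all on the plus strand. Capitals mark the element, which lies on the opposite strand in Derl3 and Creld2.
Derl3: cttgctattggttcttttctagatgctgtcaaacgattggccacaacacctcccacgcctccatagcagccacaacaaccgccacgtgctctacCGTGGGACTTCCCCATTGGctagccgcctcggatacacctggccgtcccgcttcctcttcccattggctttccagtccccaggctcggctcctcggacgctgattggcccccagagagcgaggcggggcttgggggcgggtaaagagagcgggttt
Creld2: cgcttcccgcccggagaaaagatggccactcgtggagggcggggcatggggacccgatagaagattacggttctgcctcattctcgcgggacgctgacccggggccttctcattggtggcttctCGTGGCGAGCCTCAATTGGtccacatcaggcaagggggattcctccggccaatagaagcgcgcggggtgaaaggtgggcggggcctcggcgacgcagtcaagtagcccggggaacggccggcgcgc
Syvn1: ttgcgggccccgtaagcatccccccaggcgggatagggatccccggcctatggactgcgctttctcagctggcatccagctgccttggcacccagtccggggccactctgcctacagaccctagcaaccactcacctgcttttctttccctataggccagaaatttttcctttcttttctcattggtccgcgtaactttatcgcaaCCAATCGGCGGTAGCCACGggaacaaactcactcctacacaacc

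The element starts 156, 126 and 44 bases before the start in these 3 promoters. On either strand it was found in 37 of 32851 RefSeq promoter entries (0.113%) and in 17 of the 11030 genes, of which 8117 matched a promoter entry. Of the 17 genes, 11 had a negative difference and the median was -0.44. Over all genes 52.8% of the differences were positive and the median was 0.02. Of the 8 that could be tested 2 passed, Derl3 and Creld2. The 3 genes shown had the most negative differences of the 17. Hspa5 (-0.69), Hsp90b1 (-0.63), Dnajc3 (-0.31), Pdia6 (0.04), Calr (0.10) and Canx (0.33) hold the same element and were called at neither time. The motif was looked for after the values were seen, and a match is a description of the letters and not a sign of binding.

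RNAs of the imprinted region between Dlk1 and Dio3 on chromosome 12 were among the genes whose responses differed. This region makes long noncoding RNAs (Meg3, Rian, Mirg) and many small RNAs from the maternal chromosome. Meg3 was at 1.08 and 2.59 FPKM in vehicle and TCPOBOP mice at 2 weeks, and at 4.89 and 0.841 FPKM at 8 weeks. It fell at 8 weeks, with a difference of -3.60 (approximate SE 0.68, adjusted p = 1.43e-05). Rian was at 1.74 and 6.13 FPKM and then at 4.32 and 1.36 FPKM, a rise followed by a fall (difference -3.36, approximate SE 0.57, adjusted p = 2.99e-06). Mirg was at 0.312 and 1.01 FPKM and then at 0.729 and 0.227 FPKM, and its difference passed (-2.78, adjusted p = 0.00569), although with a pseudocount of 1 FPKM it was -1.11. All 3 were higher in vehicle and lower in TCPOBOP mice at 8 weeks than at 2 weeks.

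Of 77 listed genes between Dlk1 and Dio3, 10 reached 1 FPKM. Of these 8 had a positive response at 2 weeks and all 10 a negative one at 8 weeks. Mirg and Mir369 reached 1 FPKM only in 2-week TCPOBOP mice, and Mir412 and Mir1247 only in 8-week vehicle mice. The signs of their responses and differences are in part built in by that limit, so nothing is concluded from these counts of signs. The difference was negative in 9 and 0.43 in Dio3os, and 5 passed the test. The others that passed were AF357359, which lies by Rian (4.94 and 21.1 FPKM, then 13.9 and 6.27 FPKM; adjusted p = 0.0159), and Mir1906-1, which lies in Meg3 (difference -3.65, adjusted p = 0.0165). Mir1906-2 is on chromosome X and has values identical to those of Mir1906-1, so the reads of the copies cannot be told apart and the pair counts as 1 observation. These neighbours overlap in their transcripts and are not independent. Dlk1, Rtl1 and Dio3, the protein-coding genes of the region, were at or under 0.0373 FPKM in the 4 groups. All 10 had a negative response under high corn oil and in 2-week females. Meg3 was at 5.11 and 1.14 FPKM under high corn oil and at 1.54 and 0.374 FPKM in females, so among the 4 comparisons the positive response was that of 2-week males.

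**Figure D3:**
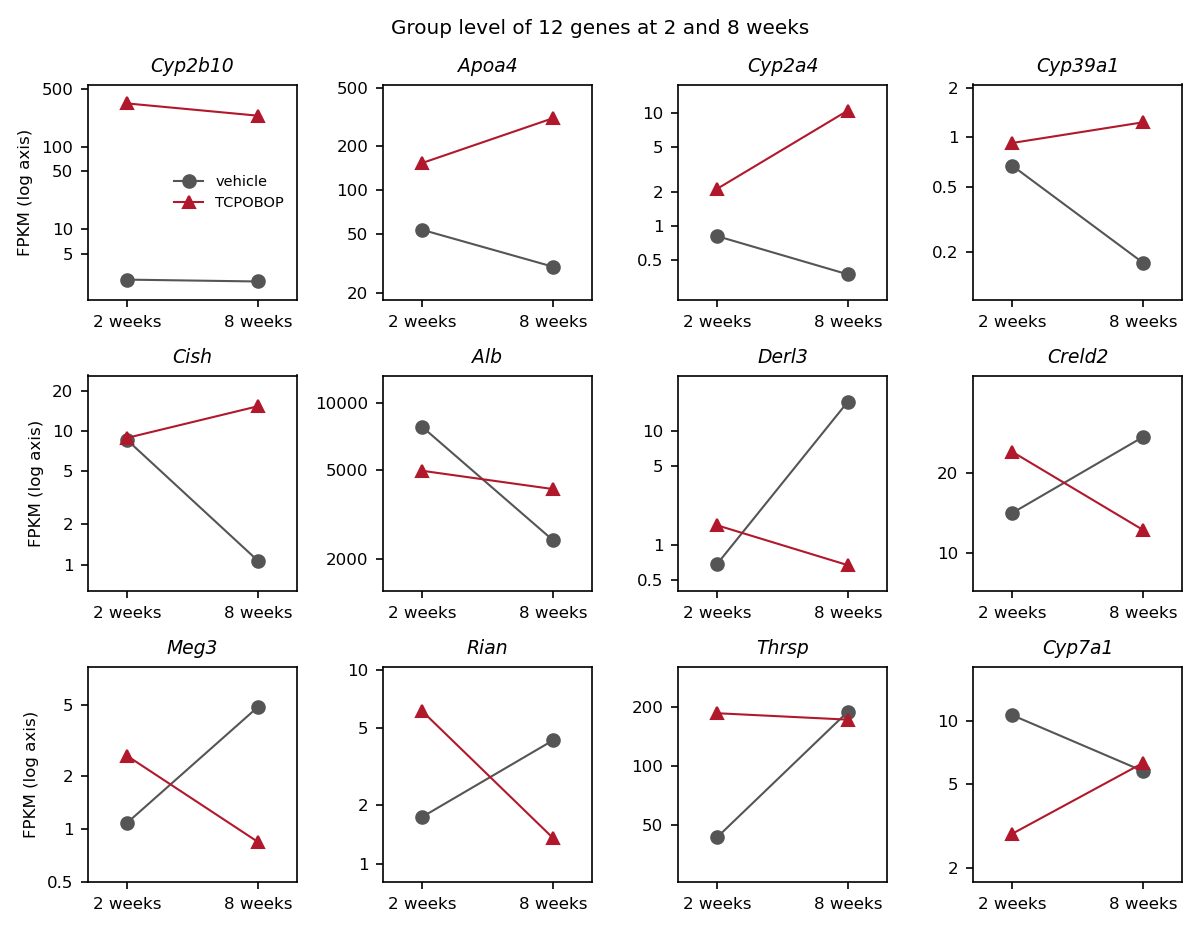
Each panel shows the level of 1 gene in FPKM on a log axis at 2 and 8 weeks, with circles for vehicle and triangles for TCPOBOP; each symbol is the authors' single group value, so no error bar can be drawn. Cyp2b10 keeps its gap, the lines of Derl3, Creld2, Meg3 and Rian cross, and the vehicle and TCPOBOP levels of Thrsp and Cyp7a1 meet at 8 weeks.

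Other gained falls included Msh5, a meiotic mismatch repair gene (difference -1.72, adjusted p = 0.0121), Capn8, a calpain protease (0.720 and 0.544 FPKM, then 3.03 and 0.223 FPKM), and the uncharacterised transcripts G530011O06Rik and C730036E19Rik, which were at 11.1 and 10.5 FPKM in 8-week vehicle mice and at or under 1.38 FPKM in the other 3 groups. The last 3 had an adjusted p of 1 at 2 weeks and could not be tested. Etnk2, an ethanolamine kinase, was called at neither time by the 2-fold limit and passed (responses 0.89 and -0.52, adjusted p = 0.0251).

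Lost rises included lipogenic, clock and metal-binding genes. Thrsp, a regulator of fatty acid synthesis, was at 43.5 and 186.5 FPKM at 2 weeks and at 189.9 and 173.0 FPKM at 8 weeks, so the 2-week vehicle level was the one that stood apart. Dbp, a clock output factor with a strong daily rhythm, was at 10.1 and 30.3 FPKM and then at 41.4 and 42.3 FPKM. Other clock genes with the same day phase as Dbp had a like pattern without a call: Per3 had responses of 0.83 and -0.22, and Ciart 1.24 and -0.34. Over 19 clock genes 2 rose at 2 weeks and 1 at 8 weeks. Their differences were positive in 9 and negative in 10, with a median of -0.003. Wee1, on the same list, rose at both times with responses of 1.25 and 1.50. Livers of all groups were collected in the late morning per the labels, and a part of the sampling hour within that window was not tested. Mt1 and Mt2, which encode metallothioneins, rose at 2 weeks with responses of 2.36 and 2.65 and were not called at 8 weeks, at 0.89 and 0.74 (adjusted p = 0.50 and 0.38 for the differences).

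Of the lost rises with the largest differences, 4930404H11Rik, an uncharacterised transcript of chromosome 12, was at 0.0402 and 4.13 FPKM and then at 1.80 and 0.778 FPKM. Its difference was -6.03, and -2.96 with a pseudocount of 1 FPKM. The test passed on the deposited difference of -7.795 (approximate SE 1.75, adjusted p = 0.00439). Adrb3, a beta-adrenergic receptor of fat cells, was at 2.76 and 18.8 FPKM and then at 11.0 and 5.47 FPKM (adjusted p = 0.101). Neat1, a nuclear RNA, rose at 2 weeks from 127.4 to 306.4 FPKM and stood at 396.9 and 539.5 FPKM at 8 weeks. In the list of blood and nuclear RNA markers that holds Neat1 and Meg3, all 10 differences were negative (median -0.85), although Malat1 had responses of only 0.09 and -0.18. The globin genes on it were not called at either time.

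Lost falls included bile acid and mesothelial genes. Cyp7a1, which starts and limits the making of bile acids, was at 10.6 and 2.91 FPKM at 2 weeks and at 5.78 and 6.30 FPKM at 8 weeks. It fell at 2 weeks and had a response of 0.12 at 8 weeks, and the difference of 1.96 could not be tested. Under high corn oil its response was -1.28. Klb, the co-receptor through which intestinal signals repress Cyp7a1, had -1.07 and -0.58. Msln, Upk3b and Wfdc2, which mark the mesothelium or other epithelia, fell at 2 weeks (responses of -1.55, -1.57 and -1.45) and were at 0.30, 0.19 and 0.17 at 8 weeks. In vehicle mice Msln was at 1.95 FPKM at 2 weeks and 0.546 FPKM at 8 weeks, and in TCPOBOP mice at 0.601 and 0.696 FPKM. The ductal marker Krt19 had -1.10 and 0.59 with no call. Of the 7 cholangiocyte and ductal markers measured, 2 rose at 2 weeks and 3 at 8 weeks, and none fell. Prom1 and Sox4 rose at both times, and Spp1 at 8 weeks. The median response of the list was -0.31 at 2 weeks and 0.59 at 8 weeks. The part of capsule or duct tissue in the samples was not tested. Plxna2, a semaphorin receptor, was the lost fall that passed the test (responses -0.98 and 0.37, adjusted p = 0.00657).

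Dmbt1, a mucin-like protein of ducts and mucosa, had the largest positive difference of all. It was at 5.97 and 0.156 FPKM at 2 weeks and at 0.0428 and 0.699 FPKM at 8 weeks, a fall followed by a rise (difference 7.05). The test passed on the deposited difference of 9.22 (approximate SE 2.08, adjusted p = 0.00449). With a pseudocount of 1 FPKM the difference was 3.30. Its level in 2-week vehicle mice was the one of the 4 above 1 FPKM, and under high corn oil it stayed under 0.1 FPKM in both groups.

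Many differences in response came with a difference between the vehicle groups. The 364 genes whose responses differed by at least 1 log2 include 105 with Mir or Snor names. Among the 364, the vehicle level differed more than the TCPOBOP level between the times in 203 genes (55.8%), and the TCPOBOP level in 161. The vehicle levels were at least 1 log2 apart in 169 of them and the TCPOBOP levels in 141, with 39 in both counts. Over all 11030 genes, 610 (5.53%) had vehicle levels and 401 (3.64%) TCPOBOP levels that far apart. In 75 of the 169 genes the vehicle mice of the high corn oil regimen at 8 weeks were also at least 1 log2 from the 2-week vehicle mice in the same direction, and in 141 the sign was the same. Both distances start from the same 2-week vehicle level, by which the 169 genes were picked. The overlap is therefore in part built in, and nothing is concluded from it. The high corn oil libraries carry the set code of the 2-week libraries.

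**Figure D4:**
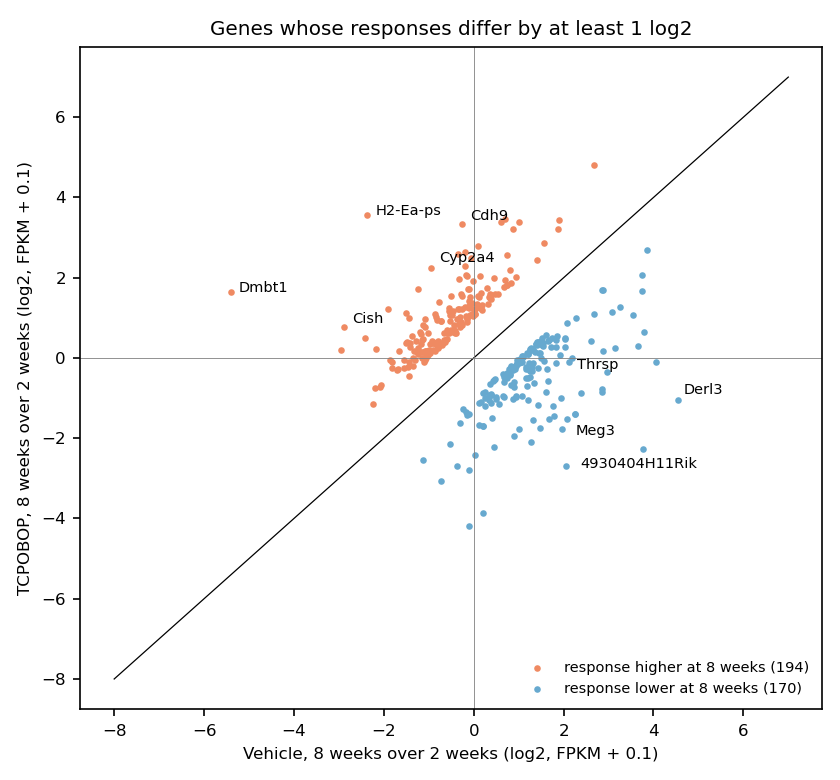
Each point is 1 of the 364 genes with responses at least 1 log2 apart, placed by the log2 ratio of its 8-week to its 2-week level (FPKM + 0.1) in vehicle mice on the x axis and in TCPOBOP mice on the y axis. Derl3 and Dmbt1 lie far out along the vehicle axis, Cdh9 lies near 0 on it, and the line marks equal ratios, from which all points are at least 1 log2 away.

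Albumin is a case in point. Alb was at 7834 and 4977 FPKM in vehicle and TCPOBOP mice at 2 weeks, and at 2433 and 4121 FPKM at 8 weeks. It had no 2-fold change at either time, and the difference of 1.41 passed (approximate SE 0.35, adjusted p = 0.0161). Apoa2, an apolipoprotein, was at 3410 and 3169 FPKM and then at 1051 and 2594 FPKM, and it rose at 8 weeks. Over the 15 hepatocyte identity markers the median ratio of the 8-week to the 2-week level was -0.89 log2 in vehicle and -0.35 in TCPOBOP mice, and 12 of the 15 differences in response were positive, with a median of 0.54. The mitochondrial respiratory chain, with 29 nuclear-encoded genes, had ratios of -0.69 and -0.76, so its median difference was -0.14 and no gene of it was called. Periportal genes, which serve urea synthesis and gluconeogenesis, had 15 of 20 negative differences (median -0.35), while 52.8% of all genes had a positive one. Their vehicle levels barely moved (0.01), and they had 1 and 2 falls at the 2 times. Whether the vehicle levels reflect age, repeated dosing with oil or the library set cannot be told apart.

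**Figure D5:**
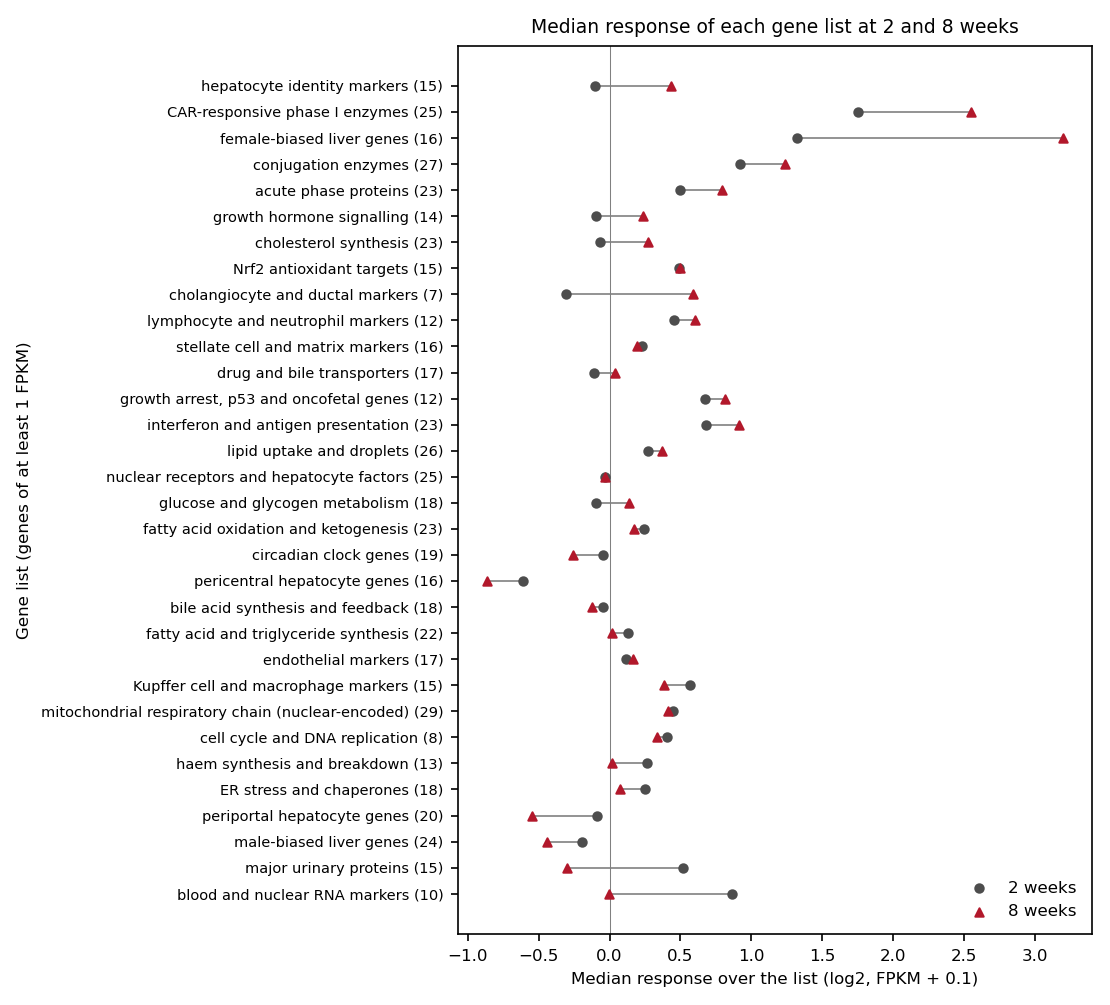
Each line joins the median response of a gene list at 2 weeks (circle) and at 8 weeks (triangle), on the log2 scale of FPKM + 0.1, with the number of genes of at least 1 FPKM in brackets and lists ordered by the median of their differences. CAR-responsive and female-biased genes lie to the right at both times, and the major urinary proteins go from 0.51 to -0.30.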

How the data were processed

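Expression was measured by sequencing nuclear polyadenylated RNA in 28 libraries of 8 groups, and 15 mice in 4 groups enter the comparison. The deposited table holds 1 FPKM value per gene and group, made by the authors from gene-body counts. Per the submitters' processing notes the tools were TopHat2 2.0.13, featureCounts 1.4.6-p5 and edgeR, with the mm9 build. The deposited fold change is a signed score of the authors, numerator over denominator or the negative inverse, and differs from the FPKM ratio by a constant scaling (-0.07 log2 at 2 weeks, -0.11 at 8 weeks). The deposited p-value is the authors' edgeR value, whose ties and pile-up at 1 are those of Benjamini-Hochberg adjustment. No source used here says how mice were pooled. No library counts were used here, so the count models planned for them were replaced by the deposited statistics.

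Responses used a pseudocount of 0.1 FPKM and a minimum of 1 FPKM. The unadjusted p was recovered from the adjusted p and its rank, each standard error was the log2 fold change over the normal quantile of that p, and the difference of the deposited log2 fold changes was tested two-sided against their joint standard error, with Benjamini-Hochberg adjustment over the 5888 testable genes of the table. Within tied runs recovered p-values are upper bounds. The procedure was run on simulated data drawn from the normal form and standard errors that it assumes. That run cannot show how well the approximation holds for sequencing counts. Named genes are the 8 largest differences of each gained and lost class, the 8 largest and the 5 most different kept genes of each direction, every opposite gene, the 10 largest passing differences each way, the 4 called members with the largest difference of each of 32 gene lists, and Cyp2b10, Cyp2c55, Nr1i3, Ccnd1 and Gadd45b. The text does not give every gene that this rule selects, and 1 of them is not reported here. The genes and lists were chosen with earlier results of these data known, and genes outside the rule after seeing their values. Replicates are separate mice per the labels. Python 3.11 libraries numpy, pandas, scipy and matplotlib were used.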

Additional observations from a re-analysis of the deposited data

Results flagged for a closer look

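The response to TCPOBOP differed between 2 and 8 weeks by the approximate test of the difference in 31 genes of at least 1 FPKM. Values in brackets are the 8-week response minus the 2-week response on the log2 scale of FPKM + 0.1. The test itself compared the deposited log2 fold changes.

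The response was lower at 8 weeks in 17 genes: 4930404H11Rik (-6.03), Derl3 (-5.60), Mir1906-1 (-3.65), Mir1906-2 (-3.65), Meg3 (-3.60), Rian (-3.36), AF357359 (-3.21), S100a8 (-3.20), H2-Bl (-2.96), Mirg (-2.78), Orm3 (-2.72), Mup2 (-2.68), Creld2 (-1.90), Msh5 (-1.72), Serpinh1 (-1.52), Notum (-1.47) and Etnk2 (-1.41).

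The response was higher at 8 weeks in 14 genes: Dmbt1 (7.05), H2-Ea-ps (5.92), Cdh9 (3.62), Mir7678 (3.15), Slpi (2.93), Serpina7 (2.39), H2-DMb1 (2.05), Cyp39a1 (1.89), Apoa4 (1.85), Tbc1d5 (1.65), Efcab3 (1.51), Alb (1.41), Plxna2 (1.36) and Slc16a7 (1.34).

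Mir1906-1 and Mir1906-2 carry identical values, Mir1906-1 lies in Meg3, AF357359 by Rian and Mir7678 at Slpi, so these entries are not separate observations. Every value rests on the authors' single value per group, and levels of 2 and 8 weeks come from mice of different age, dosing and library set.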

How the results depend on the processing

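No paired analysis was possible because the table holds 1 value per group. For the same reason leaving out single mice and the planned count-based tools were not run. Of the 172 named genes, 89 had responses at least 1 log2 apart or passing the test, and none of these differences changed sign under a pseudocount of 1 or 0.01 FPKM, the deposited fold changes or median-centred responses. Of the other 83 named genes 10 did (1810053B23Rik, Adh6-ps1, Axin2, Etnppl, Gadd45b, Gstm3, Ppp1r3c, Rdh9, Rnf43 and Slc1a2), all with differences of at most 0.594 log2. Over all 172, 67 of 688 values moved by over 1.5 times, 43 of them with a pseudocount of 1 FPKM. The cause of the other moves was not tested. All 224 list medians stayed within 1.5-fold, and those of 6 of the 32 lists, at most 0.163 log2 in size, changed sign.

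Without a limit on the fold the counts were 284 kept rises, 170 kept falls, 336 gained rises, 404 gained falls, 189 lost rises and 149 lost falls. At 1.5-fold they were 283, 167, 327, 396, 189 and 150. Without the FPKM minimum there were 338 gained rises, 228 gained falls, 118 lost rises, 138 lost falls, 443 differences of at least 1 log2 upward, 351 downward and 22 positive passing genes, a larger set of genes by construction. With the high corn oil response at 8 weeks, chosen after seeing the data, 278 rises were gained, 1 gene was opposite and 293 differences were downward. A pseudocount of 1 FPKM left 90 and 84 differences of at least 1 log2, and the FPKM difference over the same standard error left 8 positive passing genes. The remaining counts stayed within 1.5 times under the minimum of 0.5 or 2 FPKM, an adjusted p of 0.01, other adjustment sets and the removal of small RNA genes. Depth is unknown, so no detection limit can be given for low genes.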
